A study of Mus musculus with 8 samples.

Results

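The insulin-like growth factor (IGF) and insulin axis was followed here through 10 genes, taken by symbol from the 17276 genes listed for every library: the ligand gene Igf1, the binding protein genes Igfbp1, Igfbp2, Igfbp3 and Igfbp4, Igfals, and the receptor genes Ghr, Igf1r, Igf2r and Insr. All 10 were present and 9 of them had enough counts to be tested, among 11747 tested genes in all. Igf1r was the member that was not tested. The cells were hepatocytes of wild-type male C57BL/6N mice aged 6 to 8 weeks, kept under static conditions (4 libraries) or exposed to shear stress, the drag of a moving fluid on the cell surface (4 libraries). How strong the flow was and how long it lasted is not in the labels, nor is it stated that replicates are different cultures or mice. The p-values therefore measure only the spread between these libraries, which may be technical.

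As background, hepatocytes are the main source of circulating IGF1, which they make under growth hormone acting through its receptor, the kinase JAK2 and the transcription factor STAT5B. Most circulating IGF1 is held by binding proteins, and a complex of IGF1 with IGFBP3 and the acid-labile subunit (the product of Igfals) keeps it in the blood for long. IGFBP1 is a short-lived liver product whose transcription insulin represses through FOXO factors. Hepatocytes carry many insulin receptors and few IGF1 receptors, so that insulin is the main direct ligand of this receptor family on them.

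Both of these hormonal controls have known DNA elements next to member genes, and these are shown because the members fall into an insulin-controlled and a growth hormone-controlled arm. RefSeq promoters (GRCm38.p6) were matched for 9 of the 10 members, in 13 windows, all but Insr. The 250 bases before each start were searched on both strands for TGTTTTG and TATTTTG, the cores of the insulin response sequence to which FOXO factors bind, and for TTCNNNGAA, the STAT5 element, which reads the same on both strands. The matches do not overlap each other and are a description of letters, not of binding. Shown 5′ to 3′ on the strand of the gene are bases 150 to 21 before the start of Igfbp1 (chr11:7197637-7197766, plus strand) and of an Igfals transcript (chr17:24878081-24878210, plus strand), with the matches in capitals.
Igfbp1: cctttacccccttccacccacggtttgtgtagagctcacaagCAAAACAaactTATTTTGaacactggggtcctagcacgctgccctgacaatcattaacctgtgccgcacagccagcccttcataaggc
Igfals: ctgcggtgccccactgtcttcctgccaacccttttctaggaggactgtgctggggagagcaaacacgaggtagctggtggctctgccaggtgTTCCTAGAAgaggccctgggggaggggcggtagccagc
In Igfbp1 the first match is TGTTTTG on the opposite strand, 108 to 102 bases before the start, and the second is TATTTTG, 97 to 91 bases before it. TGTTTTG was found in 5.56% of 32851 such windows of all genes, TATTTTG in 3.95% and both together in 0.381%. In Igfals the match lies 58 to 50 bases before the start, and 7.02% of all windows hold one. Another Igfals window, which overlaps exons of the gene, held a further match. No window of the other members held any of these letters. The only Igf1 window (chr10:87860861-87861110) lies downstream of the gene start at 87858265 and overlaps exons of Igf1. The bases before that gene start were therefore not searched.

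In these libraries the static cells had most transcripts, per length, for the binding proteins. Mean abundance in static libraries, as deposited TPM (a transcript abundance that corrects for gene length), was 312 ± 129 for Igfbp1, 186 ± 31.6 for Igfbp2, 114 ± 42.2 for Igfbp4, 73.9 ± 25.9 for Ghr and 40.1 ± 1.05 for Igf1 (SD, n = 4). Insr at 15.8 ± 2.52, Igf2r at 13.1 ± 2.49, Igfals at 5.36 ± 1.5, Igfbp3 at 0.328 ± 0.296 and Igf1r at 0.0325 ± 0.0126 TPM followed. Ranges of neighbours in this order overlapped for Igfbp1 and Igfbp2, Igfbp2 and Igfbp4, Igfbp4 and Ghr, Insr and Igf2r, and Igfbp3 and Igf1r. Under shear stress the order of the means was the same but for Igf1, which at 94.0 ± 1.78 TPM stood above Ghr at 80.2 ± 18.3 TPM. Igf1 exceeded Ghr in 3 of these 4 libraries, and the ranges of both genes overlapped.

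Of the 9 tested members, 4 were called, against 48.6% of all tested genes (61.1% with the replicate block): 2 rose under shear stress (Igf1 and Igfbp3), 2 fell (Igfbp2 and Igf2r) and 5 were not called at an adjusted p under 0.05. Among all tested genes 24.9% were called higher and 23.7% lower, so these counts are near what the whole table gives. Igfbp3 is counted among the rises although it had enough counts only through its shear stress libraries. The median log2 fold change was 0.02 for the 9 members and -0.01 for all tested genes. With the replicate numbers as a block, which pair the libraries of both groups, 3 members rose and 3 fell, against 30.1% and 31% of all tested genes, the additions being Igfals and Insr. In CPM 3 members were higher in all 4 replicate numbers (Igf1, Igfbp3 and Igfals), as were 33.7% of tested genes, and 3 were lower in all 4 (Igfbp2, Igf2r and Insr), as were 35.2%. Levels between groups are given below as normalised CPM (counts relative to library size, scaled with trimmed mean factors). Each log2 fold change is shear stress relative to static, ± its standard error, and Benjamini-Hochberg adjusted p-values over all tested genes from the edgeR quasi-likelihood test.

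**Figure D1:**
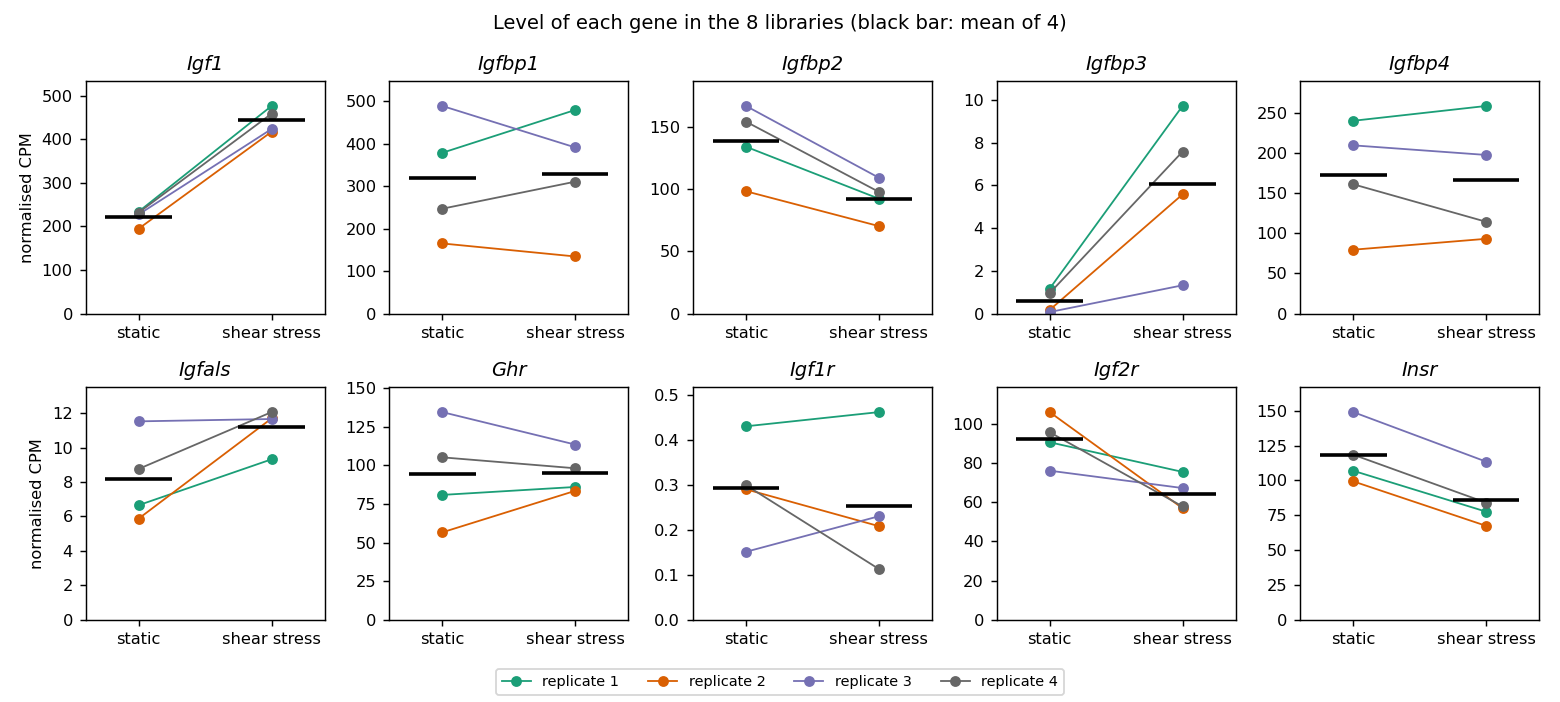
Normalised CPM (vertical axes, each from 0) of the 10 genes in the static and shear stress libraries, with lines joining libraries of the same replicate number and black bars for the means of 4. All 4 lines go up for Igf1, Igfbp3 and Igfals and all 4 go down for Igfbp2, Igf2r and Insr, while those of Igfbp1, Igfbp4 and Ghr go both ways.

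The ligand gene Igf1 (Gene ID 16000; chromosome 10, 87858265 to 87937047 on GRCm38, exons and introns together) rose in all 4 replicate numbers. Its level was 234, 195, 228 and 232 CPM in static replicates 1 to 4 and 476, 417, 424 and 459 CPM in the shear stress libraries of the same numbers. The lowest shear stress library lay far above the highest static one, and no values overlapped, which was also so for 45.3% of all tested genes. The mean rose from 222 ± 18.3 to 444 ± 28.3 CPM (SD, n = 4), a log2 fold change of 1.0 ± 0.09 (2.0-fold, adjusted p = 8.13e-05). Within the 4 replicate numbers the log2 change lay between 0.90 and 1.10. It stayed called under all 14 other settings and left-out libraries, with a log2 fold change between 0.94 and 1.22.

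Igf1 moved against the general hepatocyte markers. Of 8 such genes, 6 fell, Alb among them, and none rose, where 23.7% of all tested genes fell. The falls were 7 with the replicate block, where 31% of all tested genes fell. They were 2 with library totals, 3 with FPKM and 4 with upper quartile factors or with shear stress replicate 4 dropped. Among all tested genes 1539 of 11747 fell with library totals, 1403 of 11055 with FPKM and 1982 of 11747 with upper quartile factors. Their summed level was between 66044 and 85432 CPM in static and between 44409 and 60188 CPM in shear stress libraries. As a share of all counts, with no scaling factor, the ranges overlapped, at 6.14% to 7.48% and 4.73% to 6.35%. Hnf4a, which encodes a hepatocyte transcription factor, was not called. The part of this shift in the member values was not tested. In a bulk sample fewer cells of a type and less RNA per cell cannot be told apart. By root mean square difference of log2 CPM, each gene centred on its own mean over the 8 libraries, the profiles closest to Igf1 among 9160 genes of at least 5 CPM were those of Snx5 (0.067), which encodes a sorting nexin, Ddit4 (0.0744), a stress-induced inhibitor of the mTOR complex, and BC003965 (0.0761), against a median of 0.579. Ddit4 rose from 17.4 ± 1.74 to 36.0 ± 2.01 CPM (1.05 ± 0.11, adjusted p = 0.000109 by edgeR). It was picked for its likeness to Igf1 in these libraries, so a rise of similar size follows from the choice.

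Igfbp3, whose product carries most IGF1 in the circulation, had the largest change among the members but few reads. Its gene (chromosome 11, 7206086 to 7215498) ends 3.54 kb from the end of Igfbp1 on the opposite strand. Static replicates 1 to 4 had 19, 3, 1 and 16 estimated counts, and the shear stress libraries had 168, 107, 23 and 134. In CPM these were 1.17, 0.175, 0.0758 and 0.96 against 9.72, 5.58, 1.33 and 7.59, so that replicate 3 was the lowest in both groups and the groups did not overlap. The gene rose 9.85-fold from 0.595 ± 0.551 to 6.05 ± 3.58 CPM (3.30 ± 0.75, adjusted p = 0.0064). The ratio of pooled counts, 432 against 39, was 9.81 with an exact 95% interval of 7.06 to 14.0 that covers counting error only. Igfbp3 was tested on the strength of its shear stress libraries, since static counts alone were too low.

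In liver Igfbp3 is known from sinusoidal endothelial and Kupffer cells more than from hepatocytes, so markers of other cells were read in the same libraries. The summed level of 9 endothelial markers was between 13.0 and 29.1 CPM in static and between 9.97 and 30.9 CPM in shear stress libraries. For 10 stellate cell and fibroblast markers it was between 6.06 and 12.5 and between 7.04 and 10.1 CPM, and for 7 Kupffer cell markers between 289.6 and 418 and between 229 and 349 CPM. Cd14 and Cd68 carried nearly all of the Kupffer cell sum, with means of 335 and 40.5 CPM in static and 246 and 36.7 CPM in shear stress libraries. These ranges overlapped, and no marker of these lists rose. The single call among them was a fall of Pecam1, and no marker was at 0 in every library, although the Kupffer cell genes Clec4f and Adgre1 averaged 0.0189 and 0.0379 CPM in static libraries. Among the profiles close to Igfbp3 were those of Trpm5 (0.563), a cation channel gene, and Cd44 (0.564), the hyaluronan receptor gene. Cd44 rose from 3.73 ± 3.98 to 29.4 ± 11.9 CPM (2.96 ± 0.69, adjusted p = 0.0077 by edgeR). Its rise, too, follows from its choice by likeness, here to Igfbp3.

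Igfbp2, the second most abundant binding protein transcript (chromosome 1, 72824480 to 72852474), fell. The static libraries were at 134, 98.3, 167 and 154 CPM and the shear stress libraries at 92.3, 70.3, 109 and 97.8 CPM. Static replicate 2 was as low as the middle shear stress libraries, so the groups overlapped, but each shear stress library lay below the static library of its number. The mean fell 1.5-fold from 138 ± 29.9 to 92.4 ± 16.3 CPM (-0.58 ± 0.18, adjusted p = 0.024 by edgeR). The changes within replicate numbers lay between -0.66 and -0.48 on the log2 scale, and adjusted p was 0.000117 with the block. Unblocked, the adjusted p was 0.063 when static replicate 3 was dropped, 0.0588 for static 4, 0.0532 for shear stress 1 and 0.0579 for shear stress 2, and the call was also lost with library totals (0.0793), upper quartile factors (0.0589) or FPKM (0.0903).

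Igfbp1, the insulin-repressed binding protein gene (chromosome 11, 7197787 to 7202546), varied more between libraries of a group than between the groups. It was at 379, 165, 489 and 247 CPM in static replicates 1 to 4 and at 479.6, 135, 391 and 311 CPM in the shear stress libraries. The highest library exceeded the lowest 2.96-fold in static and 3.56-fold in shear stress cells, and replicate 2 was the lowest of both groups. Group means were 320.0 ± 143 and 329 ± 147 CPM (0.04 ± 0.42, adjusted p = 0.946 by edgeR), with a 95% interval of the log2 difference from -0.92 to 1.0. The block narrowed this interval to -0.28 to 0.31. The pairs went both ways, with 2 higher and 2 lower.

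Igfbp4, which encodes a binding protein that mostly restrains IGF action in tissue (chromosome 11, 99040005 to 99052655), had the same kind of spread. Static replicates 1 to 4 were at 240.0, 79.6, 209 and 161 CPM and the shear stress libraries at 258, 93.1, 197 and 114 CPM. The numbers stood in one order in both groups, with replicate 2 lowest and replicate 1 highest. Its log2 fold change was -0.06 ± 0.40 (adjusted p = 0.919 by edgeR), with a 95% interval from -0.96 to 0.85, and from -0.31 to 0.19 with the block. Its sign was not stable, and it was 0.17 with library totals.

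Because TPM is scaled to one total in each library, ratios within a library need no factor between libraries. The 4 binding protein transcripts summed to between 385 and 824 TPM in static and between 374 and 855 TPM in shear stress libraries. Igfbp1 made up 49.7% ± 5.98 of this sum in static and 55.6% ± 7.22 in shear stress libraries, Igfbp2 31.8% ± 6.89 and 24.2% ± 6.96, Igfbp4 18.4% ± 3.2 and 19.6% ± 3.37, and Igfbp3 0.0552% ± 0.0456 and 0.676% ± 0.405 (SD, n = 4). The share of Igfbp2 was lower in all 4 pairs. Per transcript of Igf1 there were 17.0, 9.96, 20.6 and 13.4 binding protein transcripts in static replicates 1 to 4, and 9.02, 3.9, 8.73 and 6.28 in the shear stress libraries. The ranges did not overlap, with means of 15.2 ± 4.57 and 6.98 ± 2.39. These ratios follow from the values above and are a description without a test.

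**Figure D2:**
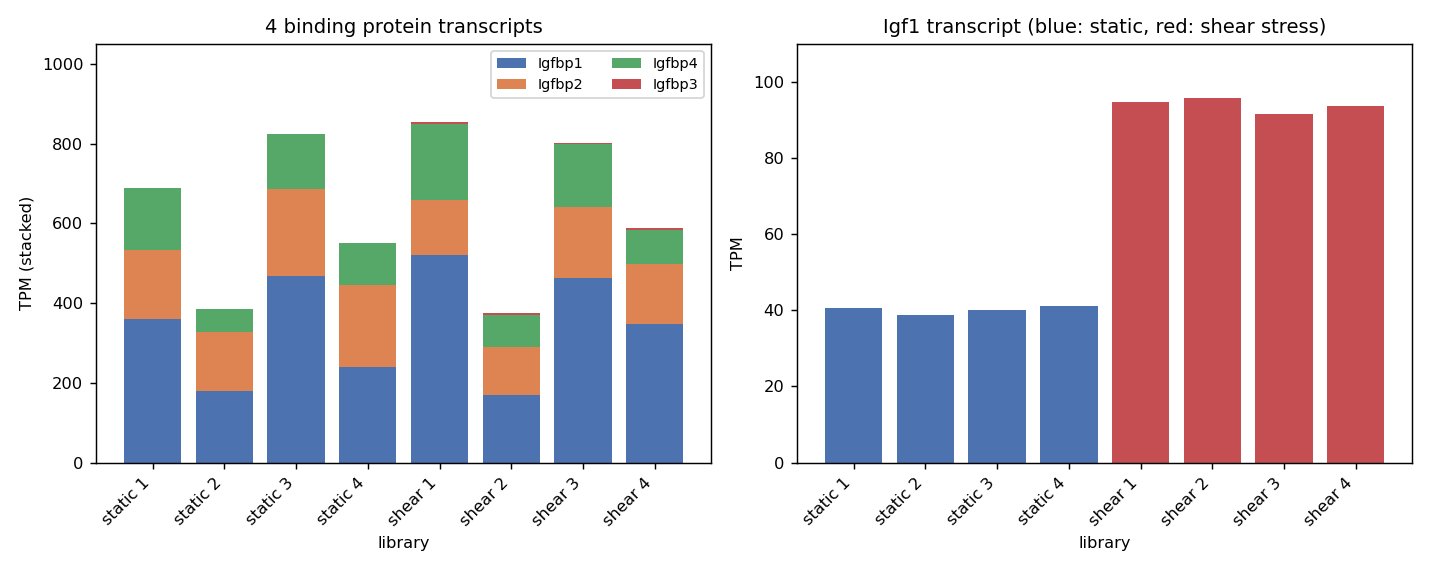
Left, stacked TPM of Igfbp1, Igfbp2, Igfbp4 and Igfbp3 in each library. Right, TPM of Igf1 in the same libraries. The binding protein sum ranges from 374 to 855 TPM and is lowest in replicate 2 of both groups, while Igf1 lies between 38.7 and 41.1 TPM in static and between 91.7 and 95.9 TPM in shear stress libraries.

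Igfals, the gene of the acid-labile subunit (chromosome 17, 24877844 to 24882011), was at 6.65, 5.88, 11.5 and 8.76 CPM in static replicates 1 to 4 and at 9.32, 11.7, 11.7 and 12.1 CPM in the shear stress libraries. Static replicate 3 reached the shear stress range, and the other static libraries lay below it. Means were 8.20 ± 2.53 and 11.2 ± 1.26 CPM (0.45 ± 0.21, adjusted p = 0.107 by edgeR, not called). It was called with the block (0.48 ± 0.17, adjusted p = 0.0324), without static replicate 3 (0.0177), and with library totals (0.018), upper quartile factors (0.0411) or FPKM (0.014).

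The growth hormone receptor gene Ghr (chromosome 15, 3317755 to 3583352) had similar means in both groups. Its libraries were at 80.9, 56.7, 135 and 105 CPM under static conditions and at 86.1, 83.5, 114 and 98.2 CPM in shear stress cells, with 2 pairs higher and 2 lower. The log2 fold change was 0.02 ± 0.24 (adjusted p = 0.963 by edgeR), with a 95% interval from -0.52 to 0.55. With the block the interval was -0.20 to 0.35. Per Ghr transcript there were 0.59 ± 0.182 Igf1 transcripts in static and 1.22 ± 0.262 in shear stress libraries in TPM, and these ranges did not overlap.

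Among the receptors of the ligands, Igf2r (chromosome 17, 12682406 to 12769706), which encodes the receptor that clears IGF2 and sorts lysosomal enzymes, fell. Static libraries were at 90.5, 106, 76.0 and 95.6 CPM and shear stress libraries at 75.4, 56.9, 67.2 and 57.8 CPM. The groups did not overlap, but static replicate 3 and shear stress replicate 1 lay within 1 CPM of each other. The mean fell 1.43-fold from 92.0 ± 12.4 to 64.3 ± 8.73 CPM (-0.52 ± 0.13, adjusted p = 0.00929 by edgeR). The call was lost with library totals (-0.30, adjusted p = 0.101) and with FPKM (-0.29, 0.143), and in TPM 1 of the 4 pairs was higher.

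Insr, the insulin receptor gene (chromosome 8, 3150922 to 3279649), was at 107, 99.4, 149 and 118 CPM in static replicates 1 to 4 and at 77.6, 67.4, 114 and 84.1 CPM in the shear stress libraries. Each shear stress library was below the static library of its number, and replicate 3 was the highest of both groups. Means were 118 ± 21.9 and 85.6 ± 19.8 CPM (-0.47 ± 0.18, adjusted p = 0.0526 by edgeR, not called). With the block it fell 1.39-fold (-0.48 ± 0.07, adjusted p = 0.000376), and its pair differences lay between -0.56 and -0.39. It was also called with DESeq2 (0.0337), without the filter on low counts (0.0493), without static replicate 2 (0.0416) and without shear stress replicate 3 (0.011), but not with library totals (-0.24, adjusted p = 0.216).

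Igf1r, the gene of the IGF1 receptor (chromosome 7, 67952257 to 68233668), was nearly silent. It had 7, 5, 2 and 5 estimated counts in static replicates 1 to 4 and 8, 4, 4 and 2 in the shear stress libraries, where 3 counts correspond to between 0.157 and 0.227 CPM. Pooled counts of 19 and 18 gave a ratio of 0.839 with an exact 95% interval from 0.415 to 1.69, which covers counting error only. The log2 change within replicate numbers lay between -1.41 and 0.61, and no change was detectable at this depth. In TPM, Insr was 564 ± 294 times as abundant in static and 615 ± 473 times as abundant in shear stress libraries.

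**Figure D3:**
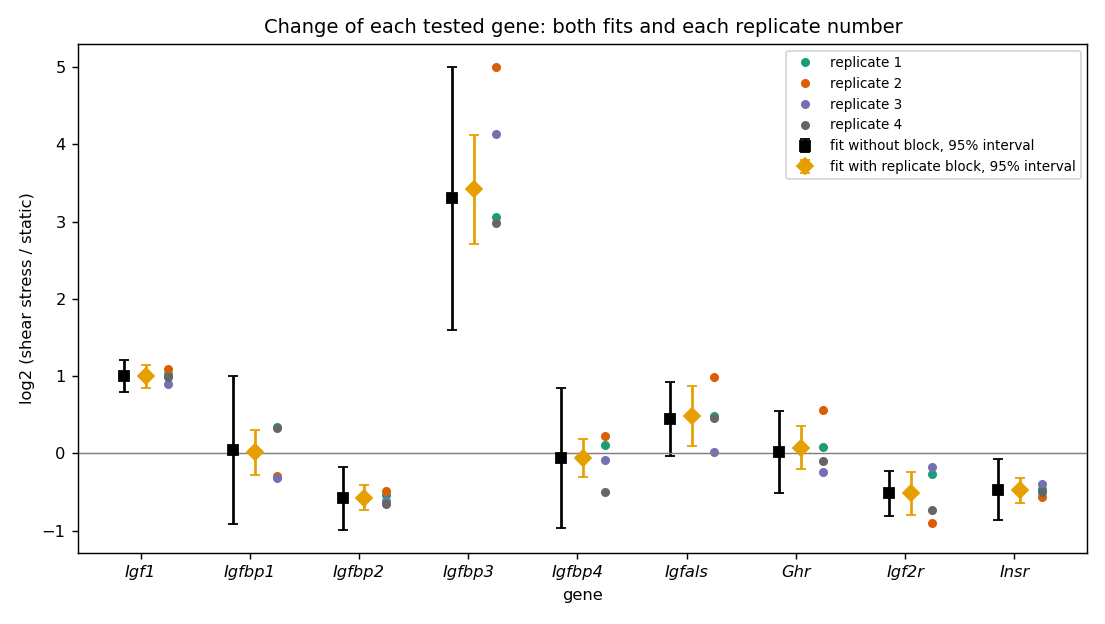
Log2 fold change of shear stress over static (vertical axis) for the 9 tested genes, as fitted without the replicate block (black squares, 95% interval), with it (orange diamonds, 95% interval) and within each replicate number (dots). The block interval of Igfbp1, -0.28 to 0.31, is much narrower than the one without it, -0.92 to 1.0, and both intervals lie above 0 for Igf1 and Igfbp3.

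Reads were not stated to be counted by strand, and GENCODE models on the opposite strand lie over Igf1 (Igf1os), Igf2r (Airn) and Insr (Gm16180, Vmn2r-ps88). None of them shares exon bases with these genes.

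The other genes of the axis were read from 5 lists with 101 genes, of which 96 were matched and 79 tested. Of these 79, 6 rose, 39 fell and 34 were not called, where 24.9% of all tested genes rose and 23.7% fell. With the block 12 rose and 44 fell, where 30.1% and 31% of all tested genes did. Their median log2 fold change was -0.38, against -0.01 for all tested genes. The counts depended on the scaling. Library totals, which move the median of all tested genes to 0.22, gave 13 rises and 24 falls. With them 4157 of all 11747 tested genes rose and 1539 fell.

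Of 16 other ligands, binding proteins and regulators, 13 were matched and 4 were tested. Ide, which encodes the insulin-degrading enzyme, was the only call and fell from 173 ± 11.96 to 134 ± 2.16 CPM (-0.37 ± 0.08, adjusted p = 0.00456 by edgeR), but not with library totals (-0.15, adjusted p = 0.248). The binding protein gene Igfbp5, whose end is 5.59 kb from that of Igfbp2, averaged 0.186 CPM in static libraries and 0.0971 CPM under shear stress (named after its value was seen).

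The list of adaptors and regulators next to the receptors had 17 tested genes, with 5 falls, 2 rises and 10 genes without a call. Its falls were near the 23.7% of all tested genes, and its median log2 fold change was -0.01, as over all tested genes. The insulin receptor substrate gene Irs2 fell 4.74-fold, with 26.2, 64.9, 59.8 and 25.4 CPM in static replicates 1 to 4 and 10.5, 12.5, 7.44 and 6.62 CPM in the shear stress libraries (-2.24 ± 0.37, adjusted p = 0.00128 by edgeR). All shear stress libraries were below all static ones. Irs1, its paralog, was at 7.97 ± 1.97 and 6.13 ± 2.37 CPM (-0.38 ± 0.29, adjusted p = 0.304, named after its value was seen). The adaptor gene Sh2b1 fell 2.63-fold to 46.6 ± 5.51 CPM, Sos1, which encodes an activator of RAS, fell 1.74-fold, and the phosphatase gene Ptpn11 fell 1.51-fold. The block raised the number of rises from 2 to 6. Dropping any one of static 2, 3 and 4 or shear stress 1 and 3 left 1 rise, and scaling by library totals gave 5 rises and 4 falls. Of all 11747 tested genes, 4157 rose and 1539 fell with that scaling.

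The arm of PI3 kinase, AKT and mTOR, which carries the signal from these receptors to growth and metabolism, was the list with the most falls. Its 29 tested genes comprised 21 falls, 2 rises and 6 without a call, against 23.7% falls and 24.9% rises among all tested genes. The median log2 fold change was -0.49, and -0.01 for all tested genes. Upper quartile factors gave 17 falls and 2 rises, against 1982 falls and 3652 rises among all 11747 tested genes. Library totals gave 13 falls and 4 rises, against 1539 falls and 4157 rises among all of them. Pdpk1, which encodes the kinase that activates AKT, fell 2.24-fold from 80.7 ± 12.4 to 36.0 ± 3.67 CPM (adjusted p = 0.000175 by edgeR). Rps6kb1, the gene of the ribosomal S6 kinase, fell 2.0-fold to 42.7 ± 2.84 CPM, and Gsk3a, a kinase gene that AKT inhibits, fell 1.67-fold to 79.6 ± 4.16 CPM. Trib3, a pseudokinase gene whose product can bind AKT, rose 2.51-fold from 49.2 ± 10.5 to 124 ± 12.9 CPM.

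Among 15 tested FOXO factors and insulin-regulated liver genes there were 5 falls and 1 rise, and 9 had no call, a share of falls not far from the 23.7% of all tested genes. The median log2 fold change was nevertheless -0.55, below the -0.01 of all tested genes. Foxo3 fell 2.56-fold from 49.4 ± 13.0 to 19.2 ± 0.512 CPM and Foxo4 1.72-fold from 19.4 ± 1.7 to 11.2 ± 0.842 CPM. The rise was that of Foxo1, the main FOXO gene of liver insulin action, from 14.95 ± 4.25 to 23.0 ± 2.47 CPM (0.63 ± 0.18, adjusted p = 0.019 by edgeR, named after its value was seen). Foxo1 was not called without static replicate 1 (adjusted p = 0.0516) or 4 (0.0503), and without static replicate 3 the list had 2 rises. Ppargc1a, a coactivator gene of gluconeogenesis, fell 3.58-fold to 0.846 ± 0.197 CPM. Sesn3 fell 1.5-fold to 3.71 ± 0.321 CPM, though not with library totals (adjusted p = 0.119). G6pc, Pck1 and Pdk4 were named after their values were seen. The gluconeogenic enzyme gene G6pc rose with the block (1.27, adjusted p = 0.000256) but was not called without it (1.11 ± 0.50, adjusted p = 0.0931 by edgeR). Pck1, another such gene, was not called with the block (-0.61, adjusted p = 0.0627) or without it (adjusted p = 0.363). Pdk4 fell with the block (-1.84, adjusted p = 4.9e-06) but was not called without it (adjusted p = 0.0593). The block gave 8 falls and 2 rises for this list, where 31% of all tested genes fell and 30.1% rose. Library totals gave 3 of each, against 1539 falls and 4157 rises among all 11747 tested genes.

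The growth hormone receptor arm had 14 tested genes, with 7 falls, 1 rise, 6 without a call and a median of -0.66, against 23.7% falls, 24.9% rises and a median of -0.01 over all tested genes. Stat3, which encodes a cytokine-activated transcription factor, fell 2.69-fold from 334 ± 55.4 to 124 ± 10.7 CPM, Bcl6, a repressor gene, fell 4.39-fold to 14.5 ± 4.16 CPM, and the feedback inhibitor gene Socs3 fell 4.24-fold to 14.1 ± 4.57 CPM. Ptpn6, a phosphatase gene, rose 1.89-fold to 7.52 ± 1.15 CPM. The signal carriers between Ghr and Igf1 fell too, and were named after their values were seen. Jak2 was at 70.8 ± 33.8 and 37.8 ± 4.12 CPM (-0.91 ± 0.29, adjusted p = 0.0273) and Stat5b at 63.4 ± 13.9 and 41.6 ± 6.64 CPM (-0.61 ± 0.18, adjusted p = 0.0176), both by edgeR. With library totals neither was called (adjusted p = 0.0902 for Jak2 and 0.0968 for Stat5b), and Jak2 was also not called when static 3 (0.0578), shear stress 1 (0.0758), shear stress 3 (0.0517) or shear stress 4 (0.062) was dropped. With library totals 4 genes of this list fell and 1 rose, where 1539 of all 11747 tested genes fell and 4157 rose.

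**Figure D4:**
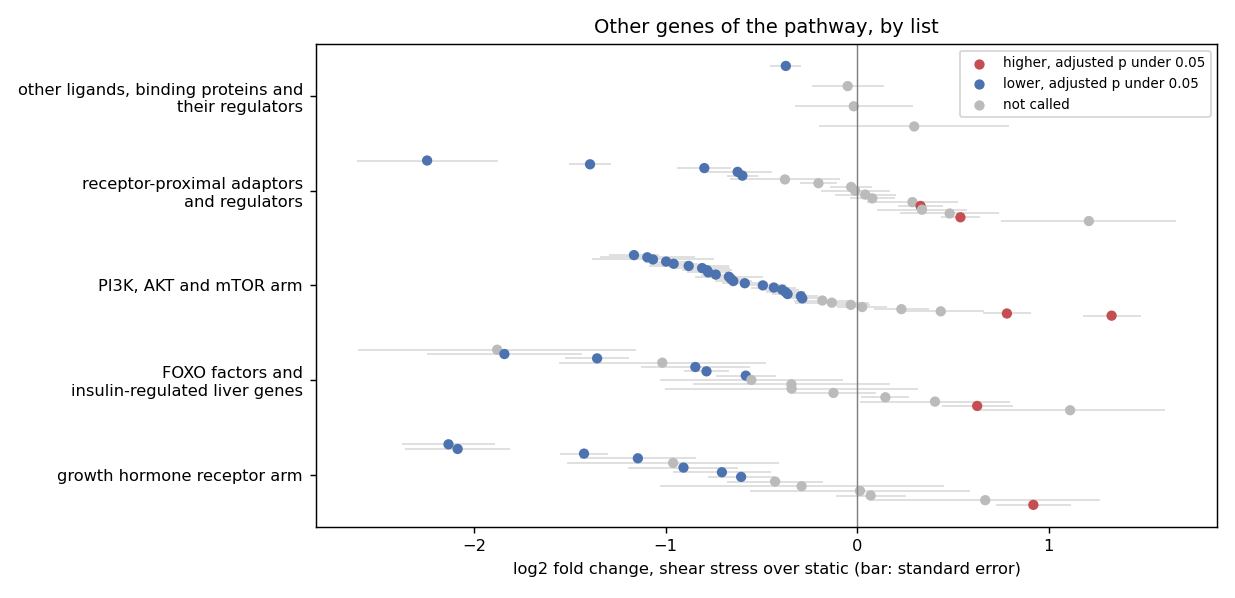
Log2 fold change (horizontal axis, bars are standard errors) of the 79 tested genes of the 5 lists, coloured by direction where the adjusted p was under 0.05. Most points of the PI3 kinase, AKT and mTOR arm lie left of 0, where 21 of 29 fell.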

How the data were processed

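RNA-seq libraries of hepatocytes were grouped by their labels into 4 static and 4 shear stress libraries. The deposited tables hold expected counts per gene, which the authors made with RSEM, and TPM and FPKM values that the authors derived from them. HISAT, Bowtie2, RSEM and mm10 (GRCm38) are named in the submitters' processing notes, and their versions and the annotation were not stated in the material at hand. Between 9.31% and 10.7% of the expected counts in a library were not whole and were rounded. Library totals were between 15067056 and 17935566 counts.

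Genes with enough counts (filterByExpr) were scaled by TMM and compared with the quasi-likelihood test of edgeR 4.0.16 in R 4.3.3, without a replicate block, and p-values were adjusted by Benjamini-Hochberg over all 11747 tested genes with a threshold of 0.05. Intervals use the t quantile of the fit. Same-numbered libraries of both groups deviated together from their group means (r = 0.679, 0.642, 0.56 and 0.467 over 8446 genes, and at most -0.0178 between different numbers). Because deviations from a group mean sum to 0, positive same-number values push those between different numbers below 0 on average. The negative values are therefore no separate evidence. The numbers, which come from the sample labels, were taken to pair the libraries because of the same-number values. The main calls, and all alternatives other than the block, do not use this pairing. Alternatives were the block, library totals, upper quartile factors, DESeq2 1.42.0, no filter, limma 3.58.1 on log2(FPKM + 0.1) for a mean FPKM of at least 0.5, and each library left out. The test was checked on simulated data with few changed genes and unpaired libraries, so the check does not cover the choice of scaling or the pairing.

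Members and gene lists were chosen with earlier results of these data known. The text names all 10 members, up to 4 called genes of each pathway list by smallest p, and the 3 genes of at least 5 CPM with the profile closest to Igf1 and to Igfbp3, of which 1 is not reported here. Others are named as chosen after their values were seen. Promoters are from RefSeq and motifs were chosen with the sequences in view. TPM ratios within a library were not tested.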

Additional observations from a re-analysis of the deposited data

Results flagged for a closer look

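Among 52 groups of 4 libraries, 3 held a library far from the others by Dixon's criterion (a gap to the nearest library, as a share of the range, above its 95% critical value), where chance gives about 1 in 20. Igf1 in static replicate 2 was at 195 CPM, below the other static libraries at 228 to 234 CPM, with a gap of 0.835 of the range. Igfals in shear stress replicate 1 was at 9.32 CPM, below the others at 11.7 to 12.1 CPM, with a gap of 0.854. Foxo4 in static replicate 4 was at 16.8 CPM, with the others at 20.2 CPM and a gap of 0.976.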

How the results depend on the processing

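Igf1 and Igfbp3 kept their direction and call under all 14 alternatives, which refit the same counts. Igfbp3 passed the filter on low counts through its shear stress libraries, so its kept call is no separate support. The number of members that fell was 0 with library totals, 1 with upper quartile factors and 0 with limma on FPKM, and between 1 and 3 with a library left out. Of the pathway genes, 13 rose with library totals, 11 with FPKM and 12 with the replicate block (between 4 and 6 with a library left out), and 24 fell with library totals and 23 with FPKM (between 34 and 40 with a library left out). The block gave 3 members higher, 3 lower and 44 pathway genes lower. Of all 11747 tested genes, 4157 rose and 1539 fell with library totals. With FPKM 3892 of 11055 genes rose and 1403 fell. The sign of Igfbp4 turned with library totals (0.17), upper quartile factors (0.075) and FPKM (0.16). With a library left out its log2 fold change lay between -0.33 and 0.14, that of Igfbp1 between -0.18 and 0.32 and that of Ghr between -0.17 and 0.23. The median log2 fold change of all tested genes was 0.22 with library totals, 0.13 with upper quartile factors and 0.20 with FPKM. The cause of these changes was not tested. Counts limit Igf1r and the static level of Igfbp3.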

Other observations

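Reads of Gh, the growth hormone gene, were listed in the static libraries, with 15, 4, 20 and 5 estimated counts in replicates 1 to 4, and at 0 in all 4 shear stress libraries. With a floor of 3 counts over the group this is at least 16.6-fold lower. Gh lies 7.64 kb from Cd79b, a B cell gene on the same strand of chromosome 11, which fell too (-5.41 ± 0.44, adjusted p = 5.5e-05 by edgeR), and the summed lymphocyte markers were between 8.76 and 11.8 CPM in static and between 0.115 and 0.626 CPM in shear stress libraries. Whether these values are related was not tested, and Gh was chosen after its values were seen.

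In TPM, the spread of Igf1 within groups was 2.28% of its mean, and 1 of 9337 genes of at least 5 CPM had less, with a median of 15.8%. In log2 CPM this rank was not kept, since 12.1% of genes had less spread than Igf1.

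Socs2, a target gene and feedback inhibitor of growth hormone signalling, was at 13.4, 6.69, 43.1 and 15.4 CPM in static replicates 1 to 4 and at 26.4, 11.9, 55.6 and 30.4 CPM in the shear stress libraries. It was higher in each pair, but was called only with the block (0.78, adjusted p = 0.000597), not without it (0.67 ± 0.60, adjusted p = 0.383).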
